A study of Homo sapiens with 3 samples.

Results

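The SR splicing factors and the hnRNPs were read on 3 arrays of HCT116 cells, a colorectal cancer cell line. Members were the genes whose name on the array is SRSF followed by a number, or HNRNP followed by letters and numbers, without pseudogene names that end in P and a number. The rule found 34 genes, 12 SRSF and 22 HNRNP, among 43299 gene names on the array, and used no measured value. SMARCA4-KD1 and SMARCA4-KD2 cells were transfected with small interfering RNA against SMARCA4 and NC cells with a scrambled negative control, and there was 1 array of each. SMARCA4 is the ATPase of SWI/SNF chromatin remodelling complexes. The sample labels name SMARCA4 in the titles and PRMT1 in the treatment field, and they do not say which of the siRNAs was used on which knockdown array. No array had a replicate, both knockdown arrays were on 1 slide and the NC array was alone on another slide. Slide and knockdown cannot be told apart.

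SR proteins carry RNA recognition motifs and a domain rich in arginine and serine repeats. They bind enhancer sequences in exons and help the spliceosome to recognise the neighbouring splice sites. The hnRNPs coat nascent transcripts, and several of them repress exons, hold RNA in the nucleus or bind 3′ ends and alter the stability of mRNA. Many genes of both families are known to regulate themselves through exons or introns whose inclusion brings a premature stop codon, so that the transcript is removed by nonsense-mediated decay.

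The array carried 67 probes for the members, each with 1 spot of 60 bases. Of these, 64 probes of 33 genes were well above background on at least 1 array, and 63 were so on all arrays. SRSF12 had no probe well above background. No member's spot was saturated or marked as an outlier. Levels are processed Cy3 intensities, given in the order SMARCA4-KD1, SMARCA4-KD2 and NC. Differences are log2 values after division of each array by its own 75th percentile, SMARCA4-KD1 before SMARCA4-KD2, and a gene stands by its brightest probe unless stated otherwise. The error that the scanner software assigned to a difference between 2 arrays was about 0.20 on the log2 scale for each member, which covers the reading of a spot and not a repeat of the experiment.

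SMARCA4 was read first. Its processed signal was 3960, 4129 and 14026 on the SMARCA4-KD1, SMARCA4-KD2 and NC arrays, and its scaled level was 26.6% and 28.8% of NC. PRMT1 had a signal of 9801, 10147 and 7683, and its level was 120% and 129% of NC. The lower gene was therefore the one in the titles. Of 9 epithelial and colon markers, 7 were well above background, with summed signals of 369791 to 398052 per array, and VIL1 and LGALS4 were not. Of 10 markers of blood cells, fibroblasts and endothelium, 6 were well above background, with summed signals of 566 to 741, and CD3E, COL1A2, DCN and PECAM1 were not.

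Some of the probes that carry the results are shown 5′ to 3′ as they stand on the array, with positions in hg19. The array files give each probe's transcript and position but no exon or UTR. The first set are 2 probes of HNRNPA2B1, the member with the largest difference from NC, each shown by its first 30 bases. The bright probe lies at chr7:26240222-26240281 and the dim probe at chr7:26240974-26241033, both on the minus strand.
HNRNPA2B1 bright probe, NM_002137: acgagtccggttcgtgttcgtccgcggaga
HNRNPA2B1 dim probe, ENST00000490912: cctgcggtgcgagggtgtggaatcctccag

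The second set are probes of HNRNPA3, SRSF6 and HNRNPK. A pair of HNRNPA3 probes share the position chr2:178080329-178080388 on the plus strand and differ at 3 of 60 bases (A14G, G42T and C59G, the brighter probe's base first, counted from the 5′ end and in capitals). The brighter probe also lists the transcript of the pseudogene HNRNPA3P1, as do 2 other HNRNPA3 probes, among them the brightest, so their signal cannot be told apart from that of the pseudogene. A probe of SRSF6 at chr20:42087885-42087944 lists the non-coding transcript variant 2, NR_034009, and not the mRNA. Another SRSF6 probe at chr20:42092182-42092241 lists the mRNA, NM_006275, and also NR_034009. Its last 30 bases are shown, with the polyadenylation signal AATAAA in capitals. The HNRNPK probe covers 465 bases of the minus strand, chr9:86585236-86585700, with 60 bases of its own, as a probe across an intron does.
HNRNPA3 brighter probe of the pair: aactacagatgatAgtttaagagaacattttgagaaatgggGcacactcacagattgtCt
HNRNPA3 dimmer probe of the pair: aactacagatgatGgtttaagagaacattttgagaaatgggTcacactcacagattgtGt
SRSF6 probe of the non-coding variant, first 30 bases: cctatgaccctttggctgaccttaccggaa
SRSF6 probe of the mRNA, last 30 bases: ctttaaatctcAATAAAatacttactgagg
HNRNPK junction probe: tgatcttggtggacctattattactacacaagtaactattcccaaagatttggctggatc

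HNRNPA2B1 was the only member at least 1.5-fold lower than NC in both knockdowns, and no member was at least 1.5-fold higher in both. Among all 22621 genes tested, 8% were at least 1.5-fold lower in both and 6.36% at least 1.5-fold higher in both, against 3.03% of the members lower. The median of the mean difference over the 33 members was -0.03, against 0.03 over all genes. The SD of SMARCA4-KD1 minus SMARCA4-KD2 was 0.14 over the members and 0.43 over all genes, which include dimmer probes. The largest such difference of a member was 0.28. For 24 of the 33 members the mean difference from NC was larger than the difference between the knockdown arrays. The share over all genes was not taken, so this count is not read as a trait of the members. Both comparisons share the NC array, so a deviation of that array moves both in the same direction.

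**Figure D1:**
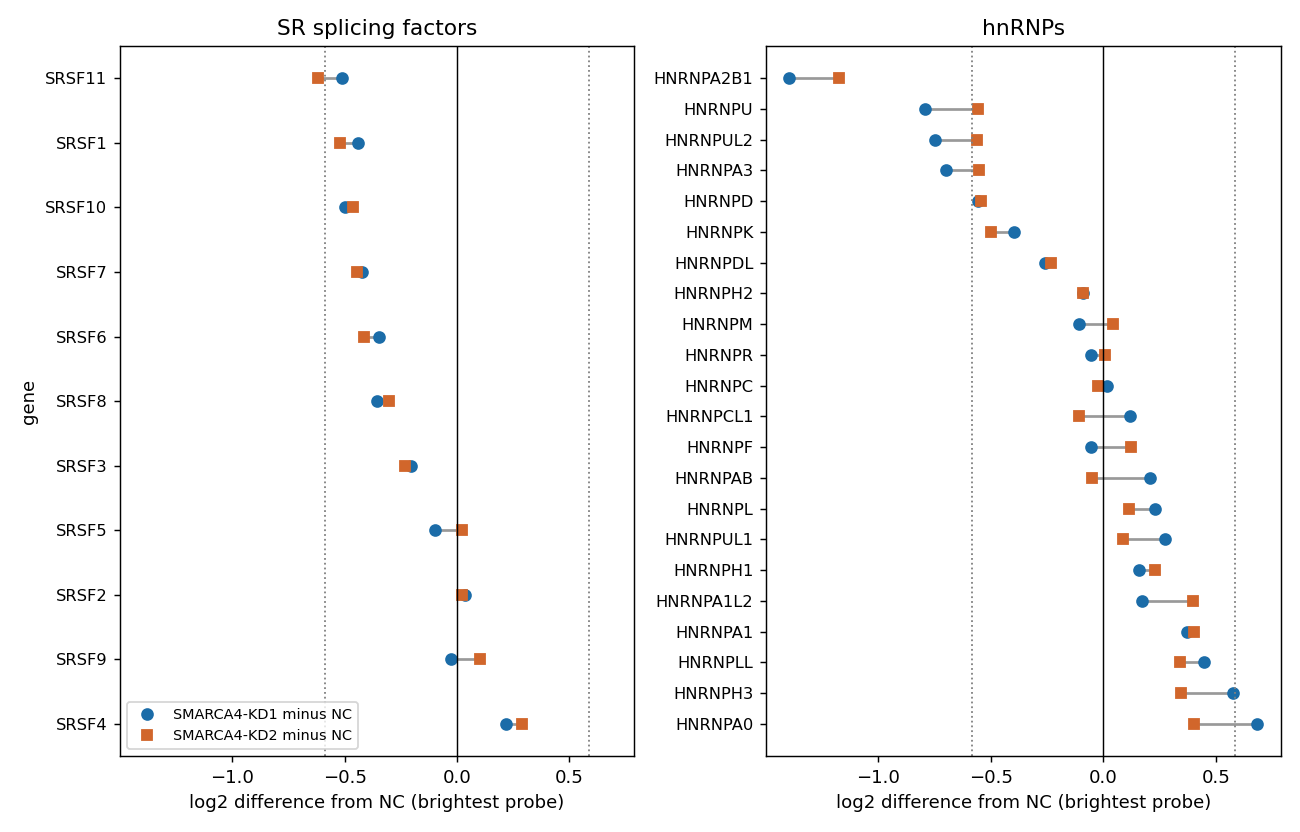
Log2 difference from NC of the brightest probe of each member, for the SR splicing factors (left) and the hnRNPs (right), with SMARCA4-KD1 as circles, SMARCA4-KD2 as squares, a grey line joining both and dotted lines at 1.5-fold. HNRNPA2B1 lies past the lower dotted line in both knockdowns, and no member lies past the upper dotted line in both.

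In SMARCA4-KD1 alone, 4 members were at least 1.5-fold lower than NC, HNRNPA2B1, HNRNPU, HNRNPUL2 and HNRNPA3, against 12.2% of all genes. One member, HNRNPA0, was at least 1.5-fold higher, against 11.2% of all genes. In SMARCA4-KD2 alone, HNRNPA2B1 and SRSF11 were at least 1.5-fold lower, against 9.73% of all genes, and 0 members were higher, against 10.1%.

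HNRNPA2B1 encodes hnRNP A2 and its longer isoform B1, which bind mRNAs for transport and act on splicing and microRNA processing. Its brightest probe had a signal of 12994, 14619 and 32240 on the SMARCA4-KD1, SMARCA4-KD2 and NC arrays. Both knockdown arrays were low. Scaled, NC was 2.63-fold above SMARCA4-KD1 and 2.26-fold above SMARCA4-KD2, log2 differences of -1.40 and -1.17. The second probe, the bright one shown above, had a signal of 5536, 5568 and 14194, log2 differences of -1.44 and -1.38. These probes therefore gave the same direction and a like size. The dim probe had a signal of 16.2, 13.2 and 21.7 and was well above background in NC only. This probe was kept through NC alone, which favoured a higher NC value in advance, so it does not count as a further reading of the gene. Set against the lowest signal well above background on the knockdown arrays, NC was at least 1.36-fold higher.

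The start site of HNRNPA2B1 in RefSeq (GRCh38.p14) lies 697 bases from that of CBX3, a heterochromatin protein gene transcribed in the opposite direction. The brightest CBX3 probe had a signal of 63194, 54782 and 61062 on the SMARCA4-KD1, SMARCA4-KD2 and NC arrays, log2 differences of -0.03 and -0.19. CBX3 was thus within 1.5-fold of NC on both arrays. The 250 bases before the start site of HNRNPA2B1, chr7:26200747-26200996 on the minus strand of GRCh38.p14, are shown because they are the part of this shared region next to the member that was low. Capitals mark CGGAAG, the core of sites for ETS factors, and CCAAT, bound by NF-Y, each on either strand.
HNRNPA2B1 upstream: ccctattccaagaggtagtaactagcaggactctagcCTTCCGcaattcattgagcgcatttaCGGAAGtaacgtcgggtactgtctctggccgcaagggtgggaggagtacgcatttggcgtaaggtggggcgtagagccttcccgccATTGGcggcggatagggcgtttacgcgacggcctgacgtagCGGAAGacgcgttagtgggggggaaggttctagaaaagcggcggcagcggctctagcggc
CGGAAG began 213, 187 and 60 bases before the start, and CCAAT 101 bases before it. The table held 46 promoter windows for 32 of the 34 members, each of 250 bases before and 50 after a start site, and none was matched for HNRNPA1 and SRSF2. CGGAAG on either strand was in 17 of the 46 windows (37.0%) and in 19.5% of all 35116 windows. CCAAT was in 23 of the 46 and in 34.6% of all windows, and the TATA sequence TATAAA in 6 (13.0%) and in 11.5%. A match is a run of letters and not a measured site, and windows of 1 gene can overlap.

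The SR splicing factors were lower than NC more often than higher. Of 11 with a probe well above background, 7 were lower in both knockdowns by any amount, 2 were higher in both and 2 had opposite signs. Over all genes, 39.3% were lower in both and 41.1% higher in both. The SR genes had a median of -0.35 for the first knockdown and -0.30 for the second, and none was 1.5-fold from NC in both. With the mean over a gene's probes in place of the brightest, the median of the mean difference was -0.14 and not -0.33. Their knockdown arrays lay close together, with an SD of SMARCA4-KD1 minus SMARCA4-KD2 of 0.08.

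The brightest SR probes, by the mean over the 3 arrays, were those of SRSF3, SRSF6 and SRSF2. SRSF3, which links splicing to export of mRNA, had a signal of 23507, 22292 and 25564 on the SMARCA4-KD1, SMARCA4-KD2 and NC arrays, log2 differences of -0.21 and -0.23. SRSF6, a regulator of alternative exons, had a signal of 16137, 14864 and 19345, log2 differences of -0.35 and -0.41. SRSF2, also known as SC35, a factor that binds exonic enhancers, had a signal of 17210, 16445 and 15829, log2 differences of 0.04 and 0.02. SRSF3 and SRSF6 were lower on both knockdown arrays, SRSF2 was level with NC, and 4 other SR genes, described next, were further below NC.

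SRSF11, which is also known as p54, was the SR gene with the lowest mean difference. Its brightest probe had a signal of 7097, 6348 and 9530, log2 differences of -0.51 and -0.62, so that it was past 1.5-fold in SMARCA4-KD2 only. Its other probes gave mean differences of -0.41 and -0.08. SRSF1, also known as SF2 or ASF and the best studied member of the family, had log2 differences of -0.44 and -0.52. It was read by 1 dim probe, given under the transcript NM_001078166. That probe had a signal of 364, 333 and 467 on the SMARCA4-KD1, SMARCA4-KD2 and NC arrays. SRSF7, a factor in splicing and mRNA export, had -0.42 and -0.44, and SRSF8, a relative of SRSF2, had -0.35 and -0.30. SRSF4 was the highest SR gene, with differences of 0.22 and 0.29. SRSF5 had differences of -0.10 and 0.02 and SRSF9 of -0.03 and 0.10, and neither kept a direction.

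SRSF10, an SR protein that can repress splicing when it is dephosphorylated, was lower on all 4 of its probes. The brightest probe had a signal of 3986, 3942 and 5312 on the SMARCA4-KD1, SMARCA4-KD2 and NC arrays, log2 differences of -0.50 and -0.46. The dimmest probe had a signal of 674, 703 and 1097, log2 differences of -0.79 and -0.68, and was past 1.5-fold in both. The remaining probes had differences of -0.38 and -0.36, and of -0.34 and -0.49. The size thus varied between the probes and the direction did not. The probes differ in position, in brightness and in part in the transcript they are given under, and these cannot be told apart.

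Of the 22 hnRNPs, 8 were lower in both knockdowns by any amount, 8 higher in both and 6 had opposite signs, with a median mean difference of 0.00. Each of these directions held 36.4% of the hnRNPs, near the 39.3% lower and 41.1% higher of all genes. Within the A/B and D group, whose proteins carry paired RNA recognition motifs and a glycine-rich tail, the mean differences ran from -1.28 for HNRNPA2B1 to 0.54 for HNRNPA0.

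HNRNPA3, a relative of A2 that binds the same kind of RNA element, was lower on all 5 of its probes. The brightest probe had a signal of 25990, 27767 and 39775 on the SMARCA4-KD1, SMARCA4-KD2 and NC arrays, log2 differences of -0.70 and -0.55. The brighter probe of the pair with a shared position had a signal of 2510, 2396 and 3949, log2 differences of -0.74 and -0.75. The dimmer one had a signal of 796, 778 and 1387, log2 differences of -0.88 and -0.87. Both probes of the pair were at least 1.5-fold lower in both knockdowns. As they share a position and nearly all bases, they are not separate readings of the gene. The other probes gave mean differences of -0.41 and -0.58. HNRNPD, also known as AUF1, which binds AU-rich elements and promotes mRNA decay, had a signal of 23488, 22882 and 32642, log2 differences of -0.56 and -0.54, just inside 1.5-fold. Its relative HNRNPDL had differences of -0.26 and -0.23, and a second probe of 0.21 and -0.08.

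HNRNPA1 encodes the most studied repressor of exons in the family, and its probes disagreed. The brightest hnRNP probes by the mean over the 3 arrays were those of HNRNPA1, HNRNPA1L2 and HNRNPC, and on the NC array alone those of HNRNPA3, HNRNPD and HNRNPA2B1 were above HNRNPA1L2. The HNRNPA1 one had a signal of 85436, 84094 and 62246 on the SMARCA4-KD1, SMARCA4-KD2 and NC arrays, log2 differences of 0.37 and 0.40. A probe of ENST00000546500 had a signal of 2387, 2290 and 3172, log2 differences of -0.49 and -0.50. The remaining probe, which also lists the transcript of the pseudogene HNRNPA1P10, had differences of 0.01 and 0.02. So the probes of 1 gene were higher, lower and level, each alike on both knockdown arrays.

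HNRNPA1L2, an intronless copy of HNRNPA1, had a signal of 36235, 40869 and 30309, log2 differences of 0.17 and 0.40. Of its 3 probes, 2 also list HNRNPA1 transcripts, so its signal cannot be told apart from that of HNRNPA1. HNRNPC, which binds runs of uridine and keeps cryptic exons out of mRNA, had a signal of 35052, 32930 and 32692, log2 differences of 0.02 and -0.02. Another HNRNPC probe, also on the minus strand of chromosome 14, had differences of 0.51 and 0.37. The remaining HNRNPC probe is placed on chromosome 2 in the files and not on chromosome 14 as the others are, and had differences of -0.11 and -0.03. HNRNPA0, which binds AU-rich RNA, was the highest member, with a signal of 2901, 2302 and 1703 and differences of 0.68 and 0.40. It was past 1.5-fold in SMARCA4-KD1 only.

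HNRNPU, or SAF-A, which ties RNA to chromatin and the nuclear scaffold, had a signal of 6463, 7346 and 10553 on the SMARCA4-KD1, SMARCA4-KD2 and NC arrays. Its log2 differences were -0.79 and -0.55, and its second probe had -0.42 and -0.38. HNRNPUL2, a relative of it, had a signal of 189, 207 and 300, log2 differences of -0.75 and -0.56. Both were past 1.5-fold in SMARCA4-KD1 and just short of it in SMARCA4-KD2. The remaining gene of this group, HNRNPUL1, had differences of 0.27 and 0.09. The listed transcripts of the HNRNPUL2 probe include the readthrough gene HNRNPUL2-BSCL2.

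HNRNPK, which binds C-rich RNA and DNA through KH domains, was lower on both of its probes. The brightest had a signal of 8074, 7271 and 10042, log2 differences of -0.40 and -0.50. The junction probe had a signal of 4836, 4771 and 7151, log2 differences of -0.65 and -0.62, and was at least 1.5-fold lower in both. Counted by probe, 6 of 64 member probes (9.38%) from 4 genes were at least 1.5-fold lower in both, against 7.98% of all 29335 probes. These include the HNRNPA3 pair with a shared position and the bright probes of HNRNPA2B1, so they are not 6 separate readings. No member probe was at least 1.5-fold higher in both, against 6.58% of all probes.

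**Figure D2:**
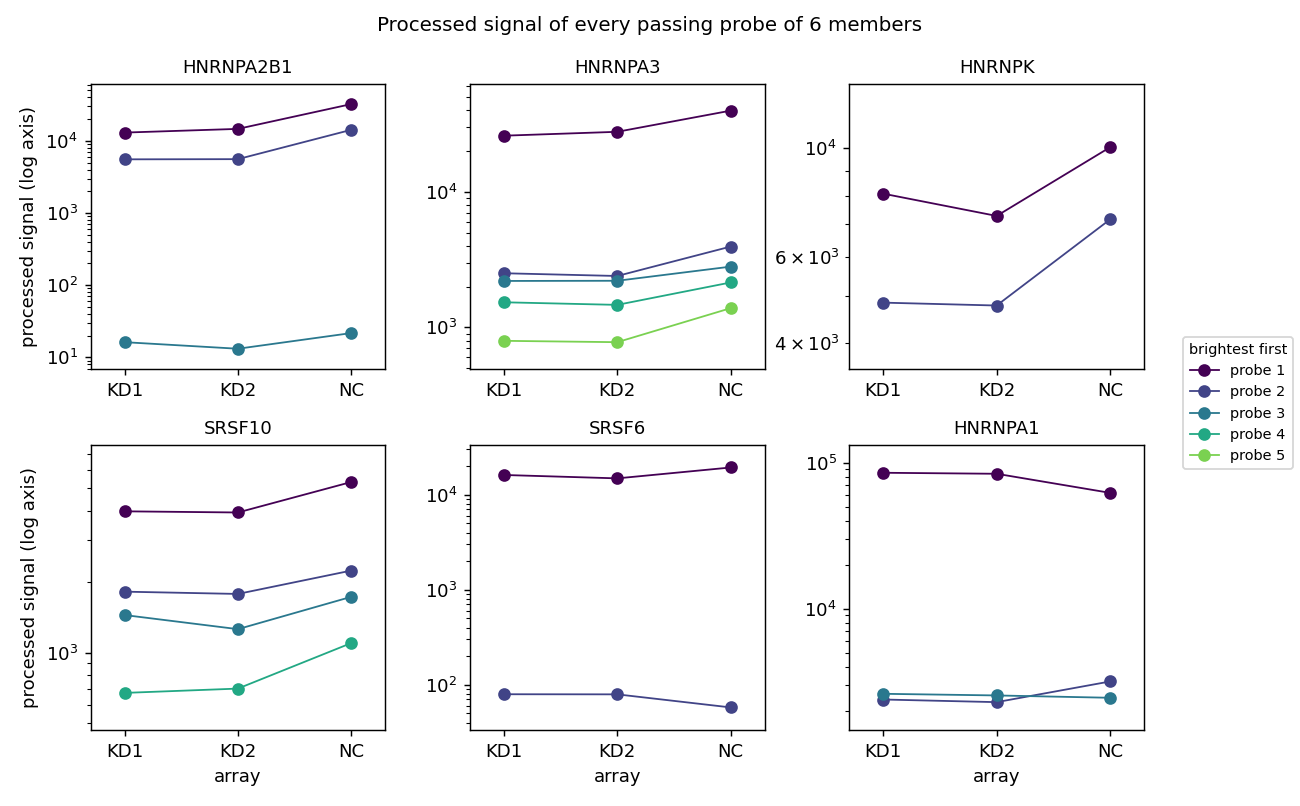
Processed signal on a logarithmic axis of every passing probe of HNRNPA2B1, HNRNPA3, HNRNPK, SRSF10, SRSF6 and HNRNPA1 on the SMARCA4-KD1, SMARCA4-KD2 and NC arrays, 1 line a probe with the brightest as probe 1. Every probe of HNRNPA3, HNRNPK and SRSF10 and the bright probes of HNRNPA2B1 were highest in NC, the dim HNRNPA2B1 probe was kept only because NC was well above background, and the probes of SRSF6 and of HNRNPA1 ran in opposite directions.

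Among the F and H proteins, which bind runs of G, HNRNPH3 had differences of 0.58 and 0.35 and HNRNPH1 of 0.16 and 0.23. A second HNRNPH3 probe had differences of -0.08 and 0.05. HNRNPH1 had a pair of further probes that were not well above background on any array. HNRNPH2 had -0.09 in both and HNRNPF -0.05 and 0.13. HNRNPL, which binds CA repeats, had differences of 0.23 and 0.11, and its relative HNRNPLL, known for the splicing of CD45 in lymphocytes, had 0.45 and 0.34. HNRNPM, HNRNPR, HNRNPAB and HNRNPCL1 had opposite signs in the knockdowns, with no difference larger than 0.21. The HNRNPCL1 probe also lists transcripts of its near copies HNRNPCL2 and HNRNPCL4.

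Differences between the probes of 1 gene were often larger than those between the knockdown arrays. The dim probe of HNRNPA2B1, which was kept through NC alone, is left out of these counts. Of 19 members with more than 1 probe well above background on every array, all such probes were lower in both knockdowns for 7 (HNRNPA2B1, HNRNPA3, HNRNPD, HNRNPK, HNRNPU, SRSF3 and SRSF10) and all were higher in both for 2 (HNRNPA0 and SRSF2). For 6 members, 1 probe was lower in both and another higher in both, HNRNPA1, HNRNPA1L2, HNRNPC, HNRNPLL, SRSF6 and SRSF7. Some of the lower probes were close to NC, with differences of -0.02 and -0.06 for HNRNPA1L2, -0.11 and -0.03 for HNRNPC and -0.27 and -0.02 for HNRNPLL. These counts were not taken over all genes with several probes. The median range of the mean difference within a gene was 0.32, and the widest was that of HNRNPA1, 0.89.

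SRSF6 and SRSF7 were singled out after their values were seen. The SRSF6 probe of the non-coding variant had a signal of 79.4, 79.2 and 57.7 on the SMARCA4-KD1, SMARCA4-KD2 and NC arrays, log2 differences of 0.38 and 0.42. The mRNA probe had -0.35 and -0.41. The probe of the variant was thus higher and that of the mRNA lower on both knockdown arrays, each by less than 1.5-fold. For SRSF7, the second probe had a signal of 819, 714 and 659, log2 differences of 0.23 and 0.08, against -0.42 and -0.44 for the brightest. Both SRSF7 probes list the transcript NM_001195446.

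**Figure D3:**
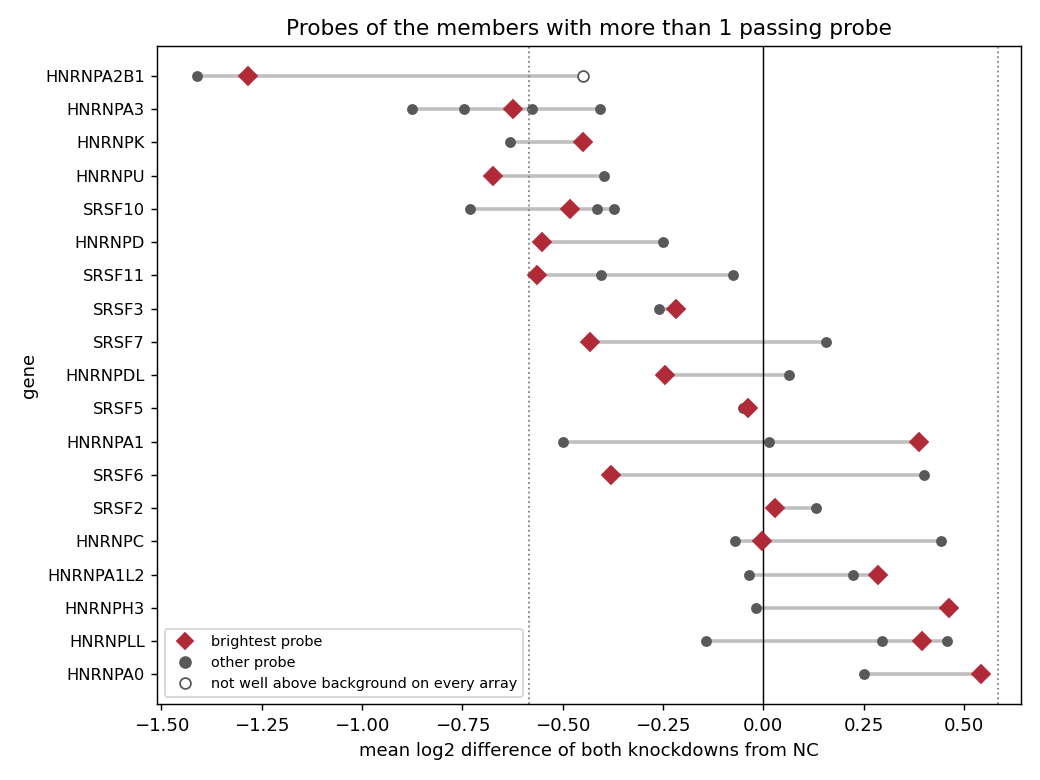
Mean log2 difference of both knockdowns from NC for every passing probe of the 19 members with more than 1, with the brightest probe as a diamond, other probes as circles, an open circle for the probe not well above background on every array, whose value is a bound, and dotted lines at 1.5-fold. The probes of SRSF6 lie at -0.38 and 0.40 and those of HNRNPA1 from -0.50 to 0.39.

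A single fit took both knockdown arrays as replicates of 1 treatment, with limma on the log2 values of all 22621 genes and Benjamini-Hochberg adjustment. It had 1 residual degree of freedom and cannot separate knockdown from slide. In this fit 0 members and 0 genes (0%) had an adjusted p under 0.05, and the smallest limma adjusted p of any gene, 0.0931, was shared by HNRNPA2B1. At an unadjusted p under 0.05 there were 18 members of 33 and 6965 genes (30.8%), and the methods' t-test with Benjamini-Hochberg adjustment called 0 genes. HNRNPA2B1 had a log2 difference of -1.28 with an SE of 0.13 in this limma fit.

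The limma count differed between settings. With genes well above background on all arrays, limma called 15 of the 33 members at an adjusted p under 0.05, against 26.5% of 19504 genes. Of these members 11 were lower, against 12% of all genes, and 4 higher, against 14.5%. The lower ones were HNRNPA2B1, HNRNPA3, HNRNPD, HNRNPK, HNRNPU, HNRNPUL2, SRSF1, SRSF6, SRSF7, SRSF10 and SRSF11. The higher ones were HNRNPA0, HNRNPA1, HNRNPH3 and HNRNPLL. For HNRNPA2B1 limma gave an adjusted p of 0.00106 there, and over all limma settings it ran from 0.00106 to 0.132.

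Genes that work with the SR proteins and hnRNPs were read from lists. Among all genes, 8% were at least 1.5-fold lower in both knockdowns and 6.36% at least 1.5-fold higher in both. None of 14 genes for kinases, a phosphatase and import of SR proteins was 1.5-fold from NC in the same direction in both knockdowns, and their median mean difference was 0.09. Of 18 SR-related proteins, RNPS1, which joins the exon junction complex, was at least 1.5-fold higher in both, with differences of 0.65 and 0.60 (median of the list -0.07), and not with quantile normalization, normexp or a percentile taken only over probes that every array had well above background. Of 17 hnRNPs under other gene names, TAF15, an RNA-binding protein, was at least 1.5-fold lower in both, with differences of -1.05 and -0.82 (median 0.03). PTBP2, with -0.58 and -0.59, was just short of 1.5-fold. It was past it with quantile normalization, that percentile, the series-level table or outlier spots kept. Other settings also added CLK3 and TRA2A as lower and SYNCRIP, TNPO1 and SRPK3 as higher. SRPK3 was added only where values were left without a floor. Its signal was 12.6, 17.7 and 7.76 on the SMARCA4-KD1, SMARCA4-KD2 and NC arrays, not well above background on every array, so it is not read as higher.

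Of 21 genes for splice site recognition, 1 was at least 1.5-fold lower in both and 2 at least 1.5-fold higher. Over all genes these shares were 8% and 6.36%, so the count is not read as a trait of the list. SNRNP70, the U1 snRNP protein that SR proteins contact at the 5′ splice site, had a signal of 807, 689 and 1385 on the SMARCA4-KD1, SMARCA4-KD2 and NC arrays, log2 differences of -0.86 and -1.04. SF3A3, a subunit of the U2 snRNP, had differences of 1.02 and 0.93, and RBM17, a splicing factor at the 3′ splice site, had 0.87 and 0.59. RBM17 was short of 1.5-fold with quantile normalization, normexp or a percentile taken only over probes that every array had well above background, and SF3A3 with the mean over its probes. The median of the list was 0.15. Of 15 genes for nonsense-mediated decay, 11 were higher in both by any amount and 3 lower in both, where all genes had 41.1% and 39.3%, with a median of 0.21 against 0.03 over all genes, and none was past 1.5-fold in both.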

How the data were processed

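Total RNA was labelled with Cy3 and hybridised to 1 Agilent whole-transcriptome array (SurePrint G3 v3) per condition. The deposited intensity is the processed signal that Agilent Feature Extraction 10.7.1.1 (version from the submitters' processing notes) gave the authors, with background subtraction but no normalization between arrays. A deposited series-level table of intensity, with the same scale, served as an alternative. Control and outlier spots were left out, log2 values were taken relative to each array's 75th percentile over all probes, and a probe was kept if any array had it well above background (45.7% to 47.3% of probes were so per array). Values not well above background were raised to the lowest value that was. The brightest probe stood for each gene. Gene names and hg19 positions are those of the array files, and RefSeq promoters are GRCh38.p14. The sequence of 1 member probe is not reported here.

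A threshold of 1.5-fold against NC, that of the study, was applied to each knockdown with no test. The study's p of 0.01 needs replicates. Both knockdowns against NC were fitted with limma 3.58.1 (R 4.3.3) with an intensity trend, which assumes that NC varies like the knockdown arrays. Other steps used Python 3.11.15, numpy 2.4.6, pandas 2.3.3, scipy 1.17.1 and matplotlib 3.10.9 and were tested on simulated data. Given with their level on each array were members, or single probes of them, at least 1.5-fold from NC in the same direction in both knockdowns, and the brightest 3 probes of each family. Partner genes were named by the same threshold. Other members named with levels were chosen after their values were seen. Members and lists were chosen with earlier results of these data known. The number of arrays limits the precision.

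The alternatives were quantile normalization, the same percentile restricted to probes that every array had well above background, background correction by normexp (offset 50), the filter applied to all arrays or dropped, values left without a floor, a gene's probes averaged, the series-level table, outlier spots kept, each probe counted, a 2-fold threshold, limma without the trend, an unadjusted p and the methods' t-test.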

Additional observations from a re-analysis of the deposited data

How the results depend on the processing

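HNRNPA2B1 stayed at least 1.5-fold lower in both knockdowns under each alternative run, with mean differences from -1.41 (quantile normalization) to -1.05 (mean over probes, the bound of the dim probe included), and no alternative put a member at least 1.5-fold higher in both. The count of members lower in both was 5 with quantile normalization (HNRNPA3, HNRNPD, HNRNPU and SRSF11 added) and also 5 with the percentile taken only over probes that every array had well above background (HNRNPA3, HNRNPD, HNRNPU and HNRNPUL2 added). It was 2 with the mean over probes (HNRNPA3 added) and 6 when each passing probe was counted. The members' median of both was -0.15 with quantile normalization. SR genes lower in both numbered 9 of 11 with quantile normalization or that percentile, and 6 with the mean over probes, where SRSF6 was higher in both.

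In limma, 15 members and 5174 genes were called when the filter asked for all arrays, 9 and 2703 with quantile normalization, 8 and 3665 with normexp, and 18 and 6965 at an unadjusted p under 0.05. The methods' t-test with p under 0.01 and 1.5-fold called 431 genes and 0 members. The cause of these moves was not tested. Of 297 values of single members under the alternatives, 266 stayed within 0.10 of the reported one, and the 1.5-fold call of HNRNPA2B1 did not change sign. That total includes the filter and floor settings, which could not move a member, as each brightest probe was well above background on all arrays. The restricted percentile, the series-level table and outlier spots kept each shifted all members by a common amount, below 0.10. These settings therefore say nothing about single members, and the total is not read as a measure of robustness. Only 16 of 33 members stayed within 0.10 with quantile normalization and 20 of 33 with the mean over probes. The mean over probes could not move the 14 members with 1 passing probe, which are among those 20. The mean difference of HNRNPA1 went from 0.39 to -0.03 and that of SRSF6 from -0.38 to 0.01 with the mean over probes. The other members that changed sign in any setting lay within 0.04 of 0 in the main setting. Among these, HNRNPC went to 0.13 with normexp and SRSF2 to -0.08 with quantile normalization. No paired analysis was possible because the groups hold 1 array each.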

Other observations

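HNRNPU-AS1, the antisense neighbour of HNRNPU, is left out by the naming rule and was looked at after its values were seen. Its brighter probe, at chr1:245008554-245008613 (hg19), had a signal of 88.9, 83.9 and 212 on the SMARCA4-KD1, SMARCA4-KD2 and NC arrays, log2 differences of -1.34 and -1.37. Its other probe, at chr1:245008091-245008150, had differences of -0.15 and -0.80. The brighter probe was at least 1.5-fold lower in both knockdowns and the other in SMARCA4-KD2 only.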
